A study of Mus musculus with 12 samples.

Results

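Integrin and laminin subunit genes were followed through 96 h of polyamine depletion in the mouse fibroblast line NIH3T3. The members were all transcript clusters annotated to 1 symbol that begins with Itga or Itgb, other than the integrin-binding proteins and Itgbl1, or that names a numbered laminin α, β or γ chain. They were chosen by symbol and not by their values. Of 19938 genes tested, 37 were members, 27 integrin and 10 laminin genes. Itgad alone among them had several clusters, and its brighter cluster was used.

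Cells were treated with 1 mM difluoromethylornithine (DFMO), an inhibitor of ornithine decarboxylase, to reveal the general transcriptional response to loss of polyamines. The G1 fraction was collected by sorting, so every group, untreated cells included, is a G1 population. Untreated cells, taken at 0 h, and cells after 24 h of DFMO had 3 arrays each, and cells after 12, 48 and 96 h had 2 arrays each. All are labelled as biological replicates, with no word on separate cultures, so p-values measure the spread between these arrays. The only untreated cells analysed here are those of 0 h, so exposure to the drug and hours in the dish cannot be told apart. In such bulk RNA, fewer cells that express a gene and less RNA per cell cannot be told apart either.

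Integrins are receptors of the cell surface, each made of 1 α and 1 β chain, that bind matrix proteins outside the cell and connect through talin and kindlin to the actin cytoskeleton. The α chain largely sets the ligand: some α chains bind laminins, some collagens, and some the RGD motif of fibronectin and vitronectin. Laminins are trimers of 1 α, 1 β and 1 γ chain and are a main component of basement membranes. In fibroblasts α5β1 and αv integrins are the usual fibronectin and vitronectin receptors.

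Levels are given in log2 units, so a difference of 1 is a 2-fold difference. Probes of different genes respond differently, so levels are compared between arrays and not between genes. Background stays in these values, and a dim gene sits on a floor where a change is understated. As a guide to that floor, 19 leukocyte markers, which fibroblasts should mostly lack, had untreated means whose 95th percentile was 4.0, called the dim-gene level here. Array medians lay between 4.13 and 4.20, and the correlation between arrays of a group, over genes, was 0.994 to 0.998. Untreated replicate 3, 12 h replicate 2 and 24 h replicate 3 are known from earlier results of these data to deviate together. They were left out together as an alternative. Of 14 fibroblast markers 11 were above the dim-gene level in untreated cells, among them Vim, Col1a1 and Pdgfrb, while Fap, Lum and Dcn were not. At 96 h 1 of the 14, Dcn, was higher than in untreated cells, by 4.37 log2 units, the largest rise of all genes. In the same comparison 5 were lower, Thy1 the most (log2 change -2.35), and the list's median log2 change was -0.15. List means, which include Dcn, were 8.53 to 8.55 on the 96 h arrays and 8.52 to 8.60 on the untreated ones. The part of this in the results was not tested.

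At 96 h of DFMO 4 members were higher than in untreated cells and 4 were lower. The laminin receptor chains Itga3 and Itga6, the vitronectin receptor chain Itgb3 and the laminin chain Lama4 fell. The laminin chains Lamb1 and Lamb2 and the integrin β chains Itgb8 and Itgb2 rose. At 48 h 0 members were higher and 1, Itgb3, was lower, and at 12 h and 24 h 0 members were called in either direction. Calls were made by limma's moderated test over all 19938 genes at a Benjamini-Hochberg adjusted p under 0.05. Over all genes 11.8% were called higher and 10.1% lower at 96 h, or 21.9% in all, and 2.65% higher and 3.17% lower, or 5.82% in all, at 48 h. The members' shares at 96 h, 10.8% in each direction, were near those of all genes. Of the 17 members with a mean above the dim-gene level in at least 1 group, 23.5% were called higher and 23.5% lower. Itgb2, 1 of those called higher, passed this level at 96 h alone, so its rise is what brought it into this share. Of all genes above it in the same way, 20.9% were called higher and 18% lower at 96 h. The median log2 change of the 37 members at 96 h was -0.03, beside 0.0003 for all genes. At 96 h 17 members had both arrays outside the range of the untreated arrays, 7 above and 10 below it, where 44.4% of all genes did. At 48 h 8 members were above and 9 below, where 40.9% of all genes were outside the untreated range.

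**Figure D1:**
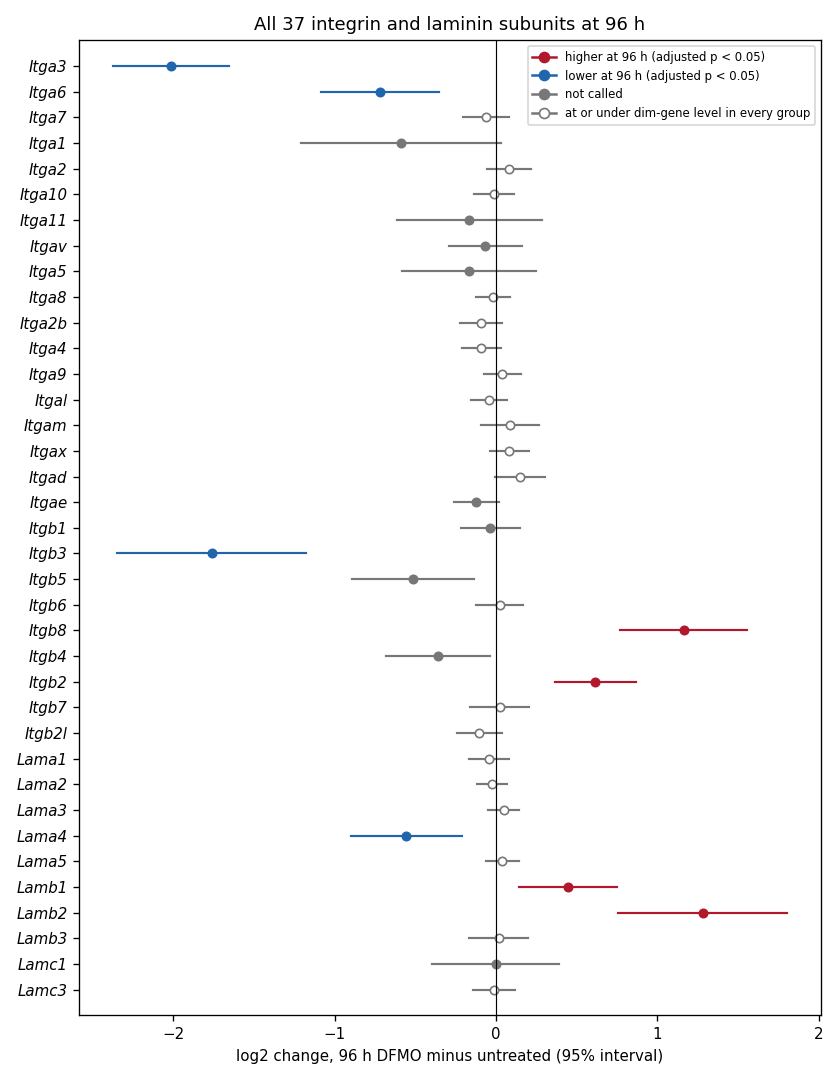
Log2 change of all 37 subunits at 96 h of DFMO minus untreated cells, with limma's 95% interval; genes run down the page by role and open symbols are genes at or under the dim-gene level in every group. Itga3 (-2.02) and Itgb3 (-1.76) lie farthest to the left and Lamb2 (1.28) and Itgb8 (1.16) farthest to the right, while the open symbols lie between -0.10 and 0.15.

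The arrays detected a limited set of subunits. In at least 1 group 17 members had a mean above the dim-gene level: Itga1, Itga3, Itga5, Itga6, Itga11, Itgae, Itgav, Itgb1, Itgb2, Itgb3, Itgb4, Itgb5, Itgb8, Lama4, Lamb1, Lamb2 and Lamc1. Itgb2 passed it at 96 h alone and Itga11 at 12 h alone. The other 20 had group means of 3.22 to 3.98, and their log2 changes at 96 h ran from -0.10 to 0.15, with 0 called. A change in those genes would be understated at the floor, so the lack of a call is not the same as the absence of a change.

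Upstream sequence is shown for the members called at 96 h that RefSeq's promoter table (build GRCm38.p6) holds, because 3 of them rose and 1, Itga3, fell. The table has entries for 24 of the 37 members and for 4 of the 8 called ones. Each line gives the 250 bases before the annotated start, read 5′ to 3′ on the gene's strand. Itga3 has 2 starts in the table and the most upstream one is used. The windows are chr11:95076715-95076964 on the minus strand for Itga3, chr12:31265043-31265292 on the plus strand for Lamb1, chr9:108479612-108479861 on the plus strand for Lamb2 and chr12:119238277-119238526 on the minus strand for Itgb8. Capitals mark matches to a GC box (GGGCGG) or a CCAAT box (CCAAT) on either strand.
Itga3: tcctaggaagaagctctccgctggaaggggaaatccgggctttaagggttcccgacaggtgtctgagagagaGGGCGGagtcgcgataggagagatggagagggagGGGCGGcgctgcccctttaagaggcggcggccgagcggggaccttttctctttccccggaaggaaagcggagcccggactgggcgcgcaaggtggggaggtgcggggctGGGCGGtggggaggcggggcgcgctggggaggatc
Lamb1: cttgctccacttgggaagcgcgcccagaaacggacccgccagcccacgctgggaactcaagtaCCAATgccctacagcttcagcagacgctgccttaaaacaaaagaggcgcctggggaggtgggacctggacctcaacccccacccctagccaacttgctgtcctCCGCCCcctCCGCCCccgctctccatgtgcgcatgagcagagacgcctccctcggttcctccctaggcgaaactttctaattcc
Lamb2: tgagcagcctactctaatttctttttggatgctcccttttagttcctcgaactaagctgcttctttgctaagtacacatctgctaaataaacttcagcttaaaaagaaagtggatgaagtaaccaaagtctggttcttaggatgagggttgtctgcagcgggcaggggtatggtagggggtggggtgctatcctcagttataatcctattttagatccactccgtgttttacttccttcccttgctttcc
Itgb8: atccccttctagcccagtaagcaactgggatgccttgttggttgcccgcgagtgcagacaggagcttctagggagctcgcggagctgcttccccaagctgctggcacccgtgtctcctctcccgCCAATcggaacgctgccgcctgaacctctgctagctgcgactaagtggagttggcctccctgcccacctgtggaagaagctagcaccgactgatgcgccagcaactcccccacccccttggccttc

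The Itga3 window held 3 GC boxes and 22 CpG, and the Lamb1 window 2 GC boxes, 1 CCAAT box and 14 CpG. The Itgb8 window held 1 CCAAT box and 12 CpG. The Lamb2 window held none of these motifs and 3 CpG, at a GC content of 43.6%, beside 67.6% for Itga3. Among all 32851 windows of the table, 32.7% held a GC box and 33.8% a CCAAT box, and the median window had 6 CpG and a GC content of 52.4%. A TATA box (TATAAA) or an AP-1 site (TGANTCA) on either strand was in none of the 4 windows, against 12.4% and 6.75% of all windows. No motif of the 4 searched was in all of the windows of Lamb1, Lamb2 and Itgb8.

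Both detected laminin-binding α chains fell at 96 h. Itga3 encodes α3, which pairs with β1 and binds laminins. Its level was 8.69, 8.51 and 8.61 log2 units on the untreated arrays, 8.22 and 8.37 at 12 h, 8.44, 8.72 and 8.18 on the 24 h arrays, 7.87 and 8.21 at 48 h, and 6.73 and 6.44 at 96 h. The 96 h arrays lay more than 1 log2 unit below every array of the other groups, and the 48 h arrays lay below the untreated ones as well. Itga3 fell by 2.02 ± 0.16 at 96 h (SE, 4.04-fold, limma adjusted p = 2.15e-05, n = 2 against 3), to a mean of 6.59 ± 0.20 (SD), against 8.60 ± 0.09 in untreated cells. At 48 h its log2 change was -0.56 (adjusted p = 0.077), which did not pass. The call at 96 h held under all 14 alternatives tried, with changes of -2.16 to -1.87.

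Itga6 encodes α6, a laminin receptor chain that pairs with β1 or β4. It measured 9.28, 9.27 and 9.43 log2 units in untreated cells, 9.36 and 9.26 at 12 h, 9.61, 9.74 and 9.26 on the 24 h arrays, 9.37 and 9.66 at 48 h, and 8.83 and 8.39 at 96 h. Only the 96 h arrays were low, and they did not overlap those of any other group. Itga6 fell by 0.72 ± 0.16 (1.65-fold, adjusted p = 0.0102) at 96 h. Without 96 h replicate 2, the lower of the pair, the call was lost at -0.50 (adjusted p = 0.111). Itga7, the third laminin-binding α chain and known from muscle, had group means of 3.58 to 3.66, at the floor. Of 6 muscle markers 1, Des, rose at 96 h.

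Because α3 and α6 are also known as epithelial integrins, epithelial markers are given beside them. Of 10 such markers 1, Cdh1, rose at 96 h and 1, Krt14, fell. Krt14 had a mean level of 7.01 at 96 h and 8.83 in untreated cells (log2 change -1.82, adjusted p = 0.000442). The other 8, Epcam and Krt5 among them, were at the floor, and the mean over the list was 3.91 on both 96 h arrays and 4.03 to 4.10 on the untreated ones. The part of this in the fall of Itga3 and Itga6 was not tested. Itgb4, the β chain specific to α6, had means of 4.05 ± 0.13 at 96 h and 4.40 ± 0.17 in untreated cells, close to the floor, with a log2 change of -0.36 (adjusted p = 0.119).

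**Figure D2:**
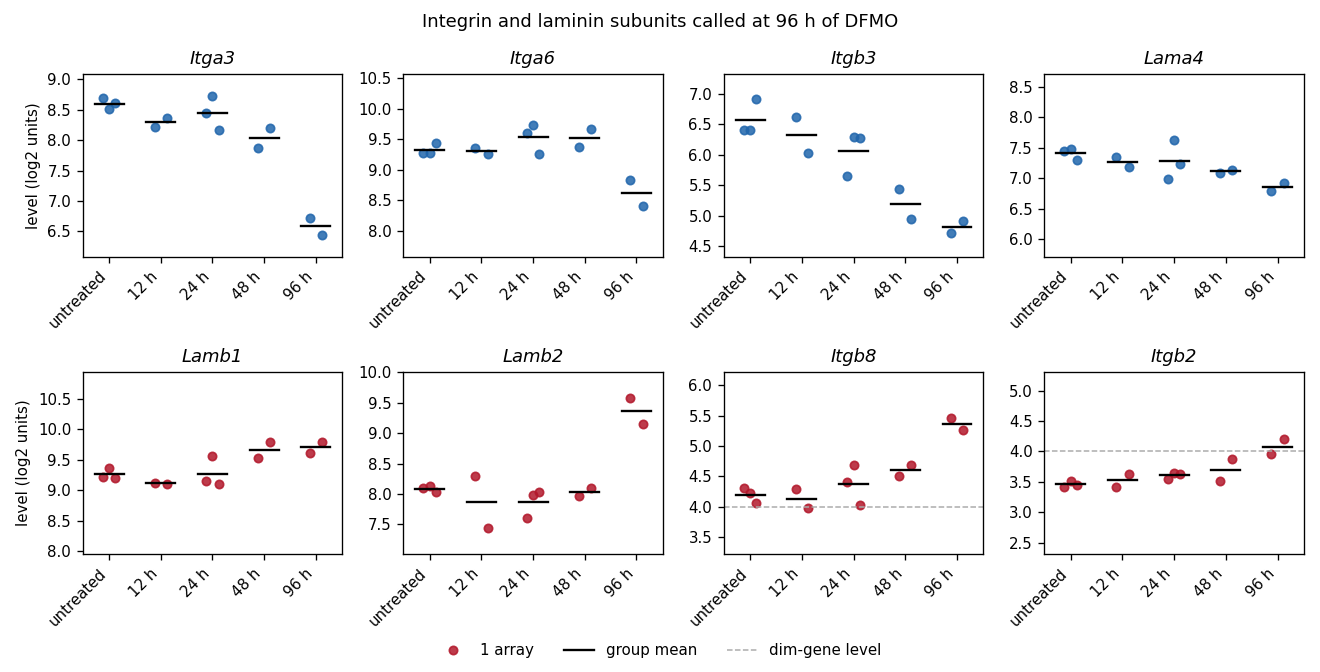
Levels of the 8 called subunits in log2 units on each array by group; points are arrays, black bars are group means, every panel spans 3 log2 units, and the dashed line is the dim-gene level of 4.0. Itga3, Itga6 and Lamb2 leave their earlier range at 96 h, Itgb3 is already low at 48 h, and Itgb2 is near the dim-gene level throughout.

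The β chain shared by most matrix-binding integrins, Itgb1, was among the steadiest members. Its arrays read 11.30, 11.43 and 11.50 log2 units in untreated cells, 11.43 and 11.23 at 12 h, 11.36, 11.47 and 11.45 on the 24 h arrays, 11.37 and 11.44 at 48 h, and 11.44 and 11.31 at 96 h. All groups overlapped. At 96 h the log2 change was -0.04, with a 95% interval from -0.22 to 0.14 (adjusted p = 0.849).

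Itgav, the αv chain that pairs with β1, β3, β5, β6 and β8, was similar. It read 10.18, 10.31 and 10.20 log2 units in untreated cells and 10.23 and 10.10 at 96 h, within the untreated range but for 1 array. Its group means ran from 10.12 at 24 h to 10.23 in untreated cells. The log2 change at 96 h was -0.07, with an interval from -0.29 to 0.16 (adjusted p = 0.766).

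While Itgav was not called, its possible β partners moved in different directions. Itgb3, which with αv forms the classical vitronectin receptor, was called lower at 48 h and at 96 h. Its arrays read 6.40, 6.41 and 6.92 log2 units in untreated cells, 6.62 and 6.03 at 12 h, 5.65, 6.29 and 6.27 on the 24 h arrays, 5.43 and 4.95 at 48 h, and 4.72 and 4.91 at 96 h. The 24 h, 48 h and 96 h arrays all lay below every untreated array. At 24 h the log2 change of -0.51 was not called (adjusted p = 0.633), nor was the step from 24 h to 48 h (adjusted p = 0.169). The time at which the fall began is thus not settled. Itgb3 fell by 1.38 ± 0.26 at 48 h (2.61-fold, adjusted p = 0.0158). It fell by 1.76 ± 0.26 at 96 h (3.40-fold, adjusted p = 0.000972). The 48 h call ended without 48 h replicate 2, at -1.14 (adjusted p = 0.121), while the 96 h call held under all 14 alternatives. Itgb3 changed by -0.38 between 48 h and 96 h (adjusted p = 0.515). Its other partner, the platelet chain Itga2b, stayed at 3.62 to 3.71, and 0 of 3 platelet markers were called at 96 h.

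Itgb8 encodes β8, which pairs with αv and is known for binding latent TGF-β. It read 4.32, 4.23 and 4.06 log2 units in untreated cells, 4.29 and 3.99 at 12 h, 4.40, 4.69 and 4.03 on the 24 h arrays, 4.51 and 4.69 at 48 h, and 5.45 and 5.27 at 96 h. Untreated levels sat just above the dim-gene level, and the 96 h arrays stood above all others. Itgb8 rose by 1.16 ± 0.18 at 96 h (2.24-fold, adjusted p = 0.0011). This call held under all 14 alternatives, with changes of 1.04 to 1.25.

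Itgb5, another αv partner and vitronectin receptor chain, was near the threshold at 96 h. Its arrays were at 9.17, 9.27 and 9.52 log2 units in untreated cells, 9.41 and 9.10 at 12 h, and 8.82, 9.26 and 9.38 at 24 h. At 48 h they were at 8.96 and 8.95, and at 96 h at 8.71 and 8.89. The 48 h and 96 h arrays did not overlap the untreated ones, but 1 of the 24 h arrays lay within the 96 h range. The log2 change at 96 h was -0.52 ± 0.17 (adjusted p = 0.0561), which did not pass. It was called lower under 3 alternatives, with dim genes left out, with trend and robust in eBayes and with only the 2 groups compared. Itgb6, known as the epithelial partner of αv, had group means of 3.41 to 3.48.

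Itga5, the α chain of the fibronectin receptor α5β1, was not called at any time. It read 8.67, 8.66 and 8.53 log2 units in untreated cells, 9.04, 8.81 and 8.40 on the 24 h arrays, 9.02 and 8.86 at 48 h, and 8.61 and 8.30 at 96 h. The 48 h arrays were above the untreated ones and the 96 h arrays overlapped them. Its log2 change was 0.32 at 48 h (adjusted p = 0.384) and -0.17 at 96 h (adjusted p = 0.66). Itga8, the other RGD-binding α chain, had group means of 3.45 to 3.49.

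Of the 4 collagen-binding α chains, Itga1 and Itga11 reached the dim-gene level and 0 were called. Itga1, whose α1β1 prefers basement membrane collagen, read 5.51, 5.41 and 5.52 log2 units in untreated cells, 6.13 and 5.33 at 12 h, and 5.21 and 4.57 at 96 h. The 96 h arrays were below the untreated ones but far apart from each other, and the log2 change of -0.59 ± 0.28 was not called (adjusted p = 0.191). The first 12 h array was also high for Itga11, the fibrillar collagen receptor chain, at 4.51 where the second read 3.76. Itga2 and Itga10 stayed at 3.34 to 3.61.

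Of the leukocyte integrins only Itgb2 was called. Itgb2 encodes β2, the common chain of the leukocyte integrins, whose α partners are the products of Itgal, Itgam, Itgax and Itgad. Its arrays read 3.42, 3.52 and 3.44 log2 units in untreated cells, 3.42 and 3.63 at 12 h, 3.55, 3.64 and 3.63 on the 24 h arrays, 3.52 and 3.87 at 48 h, and 3.95 and 4.20 at 96 h. The 96 h arrays lay above all others, yet 1 of them was still under the dim-gene level. Itgb2 rose by 0.61 ± 0.11 at 96 h (1.53-fold, adjusted p = 0.00315), and the call held under all 14 alternatives.

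The 4 α partners of β2 were at the floor in every group and 0 were called, with log2 changes at 96 h of -0.04 (Itgal), 0.09 (Itgam), 0.08 (Itgax) and 0.15 (Itgad). Of 19 leukocyte markers 2 rose at 96 h and 0 fell. Lyz2, lysozyme, had means of 6.25 at 96 h and 4.34 in untreated cells, and Lcp1, an actin bundling protein, 4.25 and 3.86. The defining marker Ptprc read 3.35 at 96 h and 3.36 in untreated cells, and Cd3e, Cd79a, Csf1r, Adgre1 and Spi1 stayed under the dim-gene level in both. That level was drawn from the untreated means of this same list, so nearly all its genes lie under it in untreated cells by construction. The mean over the list was 3.77 to 3.79 on the 96 h arrays and 3.64 to 3.69 on the untreated ones. Itgae, Itgb7, Itgb2l, Itga4 and Itga9 were not called, with group means of 3.22 to 4.02.

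Among the laminin genes, 1 α chain, 2 β chains and 1 γ chain were above the dim-gene level. Lama4 encodes α4, the chain of laminins found in mesenchymal and vascular tissue. It read 7.45, 7.48 and 7.31 log2 units in untreated cells, 7.34 and 7.18 at 12 h, 6.99, 7.62 and 7.23 on the 24 h arrays, 7.08 and 7.14 at 48 h, and 6.79 and 6.92 at 96 h. The 48 h and 96 h arrays were below the untreated ones. Lama4 fell by 0.56 ± 0.15 at 96 h (1.47-fold, adjusted p = 0.0276). The call was lost without untreated replicate 1 (-0.54) or 2 (-0.52) and without 96 h replicate 1 (-0.49) or 2 (-0.62). It was also lost without the 3 arrays that deviate together. Of 9 endothelial markers 1, Tek, rose at 96 h, with means of 3.71 at 96 h and 3.37 in untreated cells. Lama1, Lama2, Lama3 and Lama5 stayed at 3.29 to 3.63.

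The β chains Lamb1 and Lamb2 were both called higher at 96 h, and a difference in their timing was not tested. Lamb2 encodes β2, known from the neuromuscular junction and the kidney filter as well as vessel walls. It read 8.09, 8.13 and 8.03 log2 units in untreated cells, 8.30 and 7.44 at 12 h, 7.60, 7.99 and 8.03 on the 24 h arrays, 7.97 and 8.11 at 48 h, and 9.58 and 9.15 at 96 h. Only the 96 h arrays were high. Lamb2 rose by 1.28 ± 0.23 at 96 h (2.43-fold, adjusted p = 0.00318), after a log2 change of -0.05 at 48 h. The 96 h call held under all 14 alternatives, and the smallest change was 1.07.

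Lamb1, the widely expressed β1 chain, read 9.22, 9.37 and 9.19 log2 units in untreated cells, 9.12 and 9.10 at 12 h, 9.15, 9.56 and 9.10 on the 24 h arrays, 9.54 and 9.79 at 48 h, and 9.62 and 9.79 at 96 h. The 48 h and 96 h arrays were both above the untreated ones and overlapped each other. Lamb1 rose by 0.44 ± 0.14 at 96 h (1.36-fold, adjusted p = 0.0426), while at 48 h the change of 0.40 had an adjusted p of 0.126. The 96 h call was lost when any 1 of the 5 arrays compared was left out, at changes of 0.36 to 0.53. It was also lost with all clusters fitted together and without the 3 arrays that deviate together.

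Lamc1 encodes γ1, the γ chain of most laminins, and was not called. It read 9.69, 9.84 and 9.44 log2 units in untreated cells, 9.79 and 9.78 at 48 h, and 9.81 and 9.49 at 96 h. The groups overlapped, and the change at 96 h was -0.003 with an interval from -0.40 to 0.39 (adjusted p = 0.996). Lamb3 and Lamc3, the remaining chains measured, had group means of 3.50 to 3.60.

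**Figure D3:**
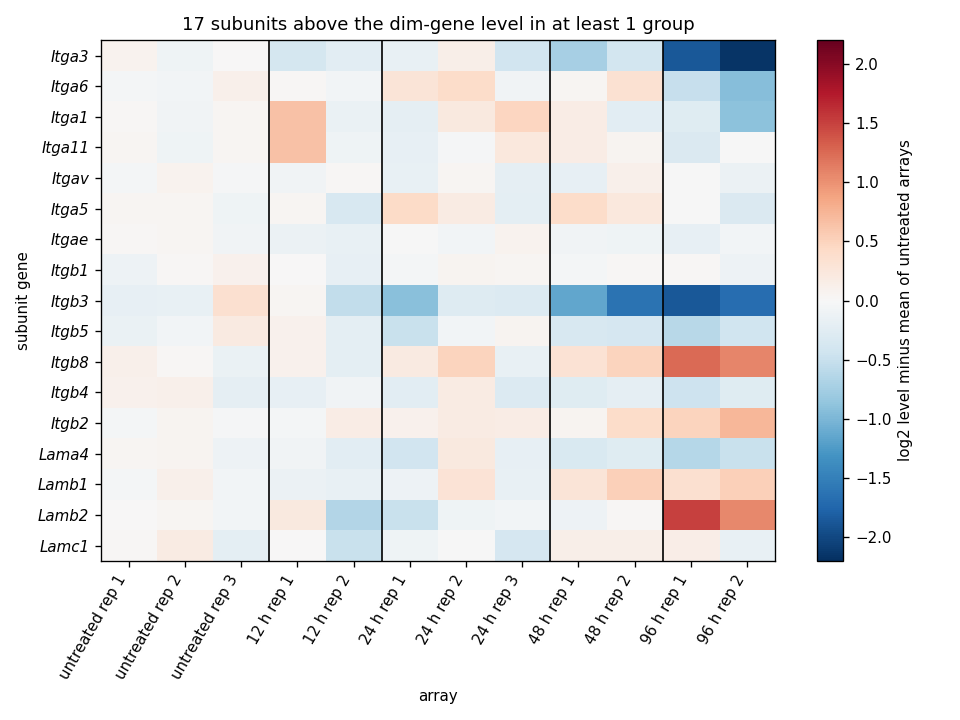
Log2 level minus the mean of the untreated arrays for the 17 subunits above the dim-gene level in at least 1 group (rows, by role), on each of the 12 arrays (columns, lines between groups). Itga3 and Itgb3 are the darkest blue and Lamb2 and Itgb8 the darkest red at 96 h, Itgb1 and Itgav stay pale, and the first 12 h array is high for Itga1 and Itga11.

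Steps within the time course were compared directly. From 24 h to 48 h 0 members were called in either direction, against 1.67% of all genes (0.527% higher and 1.14% lower). By limma 3 members had an unadjusted p under 0.05, and the smallest adjusted p was 0.169, that of Itgb3 (-0.88). Between 48 h and 96 h Itgb8 and Lamb2 rose and Itga3 and Itga6 fell, so 10.8% of members were called, against 8.64% of all genes (4.35% higher and 4.29% lower). Lamb2 rose by 1.33 ± 0.25 over this step (adjusted p = 0.0115) and Itgb8 by 0.76 ± 0.19 (adjusted p = 0.0399). Itga3 fell by 1.45 ± 0.18 (adjusted p = 0.000945) and Itga6 by 0.91 ± 0.18 (adjusted p = 0.0127). The Lamb2 step was lost without 48 h replicate 1 (1.26) or 96 h replicate 1 (1.11), the Itga6 step without 48 h replicate 2 (-0.76) or 96 h replicate 2 (-0.69), and the Itgb8 step without any 1 of the 4 arrays (0.67 to 0.85). These comparisons share arrays with those against untreated cells and are no separate evidence.

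The earliest times gave no calls. At 12 h and at 24 h 0 of 37 members and 0% of all genes passed in limma's test, and 1 member at each time had an unadjusted p under 0.05. The F test over all times called 7 members, against 17% of all genes, and Lama4 was the one of the 8 above that it left out. Member changes ran from -0.31 to 0.28 at 12 h and from -0.51 to 0.21 at 24 h. The 12 h and 24 h arrays were also the more variable ones for several members, with an SD of 0.61 for Lamb2 at 12 h and 0.05 in untreated cells.

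Other genes of cell adhesion were read in the same fit, from 3 lists chosen with earlier results of these data known. The first held 38 measured proteins of the cytoplasmic side of adhesions, of which 3 rose and 6 fell at 96 h, with a median log2 change of -0.08. Krit1, which binds the integrin regulator ICAP1, rose by 1.10 ± 0.11 (adjusted p = 0.000108) and the scaffold Pxn, paxillin, by 0.60 ± 0.09 (adjusted p = 0.000747). Tns3, a tensin, fell by 0.79 ± 0.15 (adjusted p = 0.00444). Ilk, integrin-linked kinase, had a log2 change of -0.19 (adjusted p = 0.058). Lims2 rose by 0.84 (adjusted p = 0.00683) and Fblim1 fell by 0.73 (adjusted p = 0.012). The list had 0 calls at 48 h. The 6 that fell numbered 3 without untreated replicate 2 and 2 without 96 h replicate 2.

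The second list held 37 measured basement membrane proteins and integrin ligands, of which 4 rose and 3 fell at 96 h, with a median of -0.003. Fn1, fibronectin, the ligand of α5β1, had array levels of 12.38 and 12.40 log2 units at 96 h, against 11.69, 11.72 and 11.64 in untreated cells. It rose by 0.71 ± 0.12 (adjusted p = 0.00176). Fbln2, a fibulin of basement membranes, rose by 0.58, and Edil3, an RGD-bearing protein, by 0.91, and Adam15, a membrane metalloprotease, by 0.76. Thbs1, thrombospondin 1, fell by 1.51 ± 0.32 (adjusted p = 0.00697), with 9.51 and 8.55 at 96 h and 10.45, 10.85 and 10.33 in untreated cells, and Ccn2, a matricellular integrin ligand, fell by 1.41 ± 0.42 (adjusted p = 0.0364). Without 96 h replicate 1 the 4 that rose numbered 1. The 3 that fell numbered 1 without untreated replicate 2 or 3 and 0 without 96 h replicate 2.

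The third list held 22 other matrix receptors and integrin partners, of which 4 rose and 3 fell at 96 h, with a median of -0.03. Sdc2, a syndecan, rose by 0.89 ± 0.09 (adjusted p = 7.42e-05) and Cd47, a thrombospondin receptor that associates with αvβ3, by 0.88 ± 0.14 (adjusted p = 0.00122). Cd63, a tetraspanin, rose by 0.70 (adjusted p = 0.0011). Sdc4, another syndecan, had a log2 change of -0.26 (adjusted p = 0.147). Plaur, the urokinase receptor, fell by 1.15 ± 0.26 (adjusted p = 0.011), and Dag1, dystroglycan, a laminin receptor that is no integrin, by 0.42 ± 0.11 (adjusted p = 0.0232). At 48 h 2 of this list were called higher, Sdc2 and Cd63, with 0 called without untreated replicate 1, untreated replicate 2 or either 48 h array and 1 without untreated replicate 3. The 3 that fell at 96 h numbered 1 without untreated replicate 1, untreated replicate 2 or 96 h replicate 1, and 0 without 96 h replicate 2. The shares called in the 3 lists at 96 h were 23.7%, 18.9% and 31.8%, beside 21.9% of all genes. Most genes of each list were above the dim-gene level, and of all genes above it in at least 1 group 38.9% were called.

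**Figure D4:**
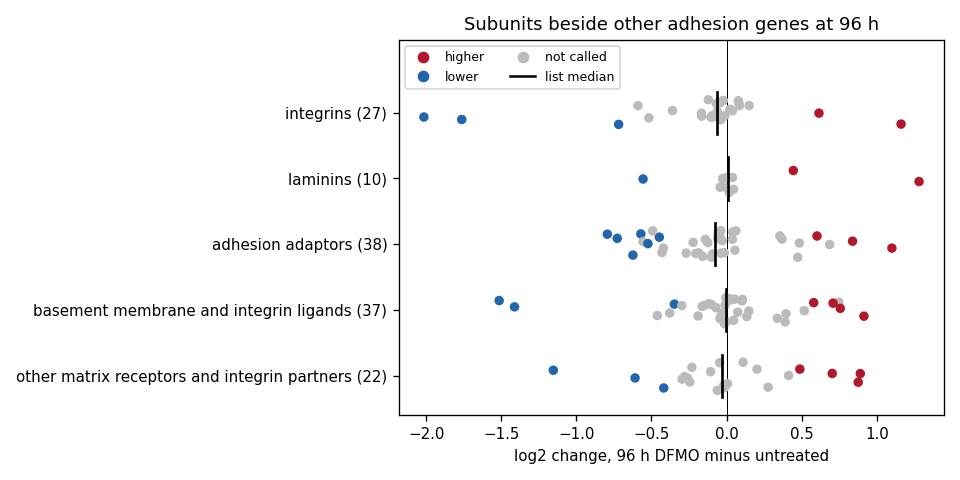
Log2 change at 96 h of DFMO minus untreated cells for each integrin, laminin and other adhesion gene, 1 point per gene, with the number of genes per list in parentheses and a bar at the list median. Each list holds called genes on both sides of 0, and the 3 adhesion lists have medians of -0.08, -0.003 and -0.03.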

How the data were processed

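Total RNA of the sorted cells was hybridised to 12 Affymetrix MoGene 1.0 ST arrays. The authors deposited log2 values for 35399 transcript clusters, from 2.53 to 13.18; the submitters' processing notes name RMA and Partek without versions. RMA normalises by quantiles, so a shift of all transcripts 1 way would be hidden. Sources used here do not give the genome build of the array annotation. All 12 value columns were used and 0 lacked a sample.

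Of the clusters, 21789 had 1 symbol in the platform annotation, which gave 19938 genes. For 21698 the Entrez identifier was found in RefSeq's table of GRCm38.p6, and 0 symbols needed an update. limma 3.58.1 in R 4.3.3 fitted 1 mean per group to all 12 arrays (lmFit, contrasts.fit, eBayes with default settings), with two-sided p-values adjusted over all genes within a comparison. The script was tested on simulated data. Figures were drawn with matplotlib 3.10.9. The number of arrays limits the precision.

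Members and lists were chosen with earlier results of these data known. Members called in any comparison were named with full values, and up to 6 genes of each list by the smallest F test p. Alternatives were median centring, leaving out dim genes, all clusters together, the mean of a gene's clusters, the replicate number as a block, array weights, eBayes with trend and robust, only the 2 groups compared, each array left out, and untreated replicate 3, 12 h replicate 2 and 24 h replicate 3 left out together. The labels number the replicates: same-number arrays of 24 h and untreated cells had deviations correlated at 0.153, 0.287 and 0.581, those of 96 h and untreated cells at -0.136 and -0.080. For the steps, same-number arrays of 48 h and 24 h were correlated at 0.35 and 0.42, and those of 96 h and 48 h at -0.049. With 2 arrays in both groups of the last step, its 2 same-number pairs share that value by construction.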

Additional observations from a re-analysis of the deposited data

Results flagged for a closer look

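The change between 48 h and 96 h was tested directly, and 4 members differed between these times. Itga3 was lower at 96 h than at 48 h by a log2 difference of -1.45 and Itga6 by -0.91. Lamb2 was higher by 1.33 and Itgb8 by 0.76.

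A further 3 transcript clusters carry the symbol Itgam together with the ribosomal protein gene Rpl35 and were left out because they have 2 symbols. When all clusters were fitted together they were higher at 96 h than in untreated cells, by log2 changes of 0.48, 0.49 and 0.48 (limma adjusted p = 0.0439, 0.0233 and 0.0448, n = 2 against 3). Their means were 10.55, 10.26 and 10.54 at 96 h and 10.07, 9.76 and 10.06 in untreated cells. The 3 clusters carry the same 2 symbols and moved together over the arrays, so they are no separate results. The part of each gene in their rise was not tested. The cluster of Itgam alone read 3.61 at 96 h and 3.53 in untreated cells and was not called.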

How the results depend on the processing

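The called changes of the 8 called members kept their direction under the alternatives run. In each called change the arrays of the 2 groups did not overlap, so leaving out or weighting arrays could not reverse it. The kept direction is therefore no separate support for these changes. The directions of uncalled members were not followed. The 96 h calls of Itga3, Itgb3, Itgb8, Itgb2 and Lamb2 held under all 14 alternatives of that comparison, while those of Itga6, Lama4 and Lamb1 were lost under 1, 5 and 7. Each of these 8 genes has 1 cluster, so taking the mean of a gene's clusters left its values unchanged and was hardly a check on it. The single member lower at 48 h became 2, Itgb3 and Itga3, with dim genes left out and 2 with array weights, and numbered 0 to 1 with 1 array left out. Members lower at 96 h numbered 2 to 4 and members higher at 48 h than at 24 h 0 to 1 with 1 array left out. Members higher at 96 h than at 48 h numbered 1 with centred arrays, 1 with all clusters fitted together and 0 to 2 with 1 array left out. Members lower over that step numbered 1 with only the 2 groups compared and 1 to 2 with 1 array left out. The F test over all times called 7 members and 3 to 8 with 1 array left out. Same-numbered arrays of 96 h and untreated cells did not deviate together. The replicate block added Itgb4 to the members lower at 96 h and Itgb2 and Itga5 between 48 h and 96 h, and the F test then called 8 members. Itgb5 joined those lower at 96 h with dim genes left out, with eBayes with trend and robust and with only the 2 groups compared, and Itgb4 did with array weights. Trend and robust also added Itgb2 to those higher between 48 h and 96 h. Over all genes at 96 h the block called 2659 higher and 2119 lower, against 2360 and 2012. Array weights called 1074 higher and 1120 lower at 48 h, against 528 and 632. A group left with 1 array is assumed to vary like the others.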
